A study of Mus musculus with 8 samples.

Results

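Promoter to promoter loops are pairs of 5 kb genomic bins that touched more often than their distance and coverage predict and that each held the canonical start site of a protein-coding gene. They were taken from 4 deposited loop lists of H3K27ac HiChIP, an assay that joins chromatin proximity ligation with immunoprecipitation of acetylated histone H3, in HPC-7, a progenitor line of mouse blood cells kept in stem cell factor. A loop was kept when its bins lay less than 500 kb apart. For p30 the untreated (UT) list held 4124 such loops of 80489 and the LPS list 4934 of 94609. For p42 the UT list held 7247 of 158233 and the LPS list 3681 of 78591, and the union of all lists held 9172 loops of 214313. All cells carried a retroviral CEBPA transgene, either p42, the full-length isoform, or p30, the isoform that lacks the N-terminal part of the protein. The transduced cells were sorted for GFP of the same vector, and the study made both constitutive transgenes and fusions to ERT2 that enter the nucleus with 4-OHT, while the labels of these libraries do not say which form was used. No library with an empty vector was analysed here, so each contrast sets p42 against p30, or LPS against no treatment within an isoform. LPS cells received bacterial lipopolysaccharide at 100 ng/mL for 2 hours. Each of the 4 groups had 2 replicate libraries and a single list, so loops could not be compared between replicates and no p-value is given for a difference between groups. Where 4 values stand in a row, they belong to p30 (UT, then LPS) and then to p42 (UT, then LPS).

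Promoters of neighbouring active genes often share nuclear space, and promoters can be bound by the same factors and brought together by cohesin and transcription machinery. H3K27ac marks active promoters and enhancers, so this assay enriches contacts that involve acetylated elements and covers silent promoters poorly. CEBPA is a transcription factor of the granulocyte and macrophage lineage, AP-1 (Fos and Jun proteins) and NF-kB are the main factors that act downstream of the LPS receptor TLR4, and a promoter pair joined in this way may or may not be coregulated.

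The promoters of 3 pairs are printed because they stood at the ends of the range: Aif1 with Nfkbil1 and Dcaf8 with Igsf8 had the highest contacts over expected among loops of at least 50 kb found in all 4 lists, and Babam2 with Fosl2 was one of the pairs at the greatest distance. Each window runs from 250 bases before to 50 bases after the canonical start site and is read 5′ to 3′ on the gene's strand from the GRCm39 assembly. The windows lie at chr17:35391746-35392045 (minus strand, Aif1), chr17:35454744-35455043 (minus strand, Nfkbil1), chr1:171975321-171975620 (plus strand, Dcaf8), chr1:172139611-172139910 (plus strand, Igsf8), chr5:31854760-31855059 (plus strand, Babam2) and chr5:32292457-32292756 (plus strand, Fosl2). Capitals mark matches, on either strand, to 9 motifs: ETS (CCGGAAGT), NRF1 (GCGCNTGCG), YY1 (GCCATNTT), SP/KLF (GGGGCGGGG), a CTCF core (AGNGGGCGC), C/EBP (TTGCNNAA), AP-1 (TGANTCA), CRE (TGACGTCA) and the TATA box (TATAAA).
Aif1: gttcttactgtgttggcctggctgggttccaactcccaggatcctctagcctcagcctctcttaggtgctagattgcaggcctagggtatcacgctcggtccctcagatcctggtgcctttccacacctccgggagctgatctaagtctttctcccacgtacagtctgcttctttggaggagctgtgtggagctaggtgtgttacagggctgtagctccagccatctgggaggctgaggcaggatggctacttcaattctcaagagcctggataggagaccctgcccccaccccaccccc
Nfkbil1: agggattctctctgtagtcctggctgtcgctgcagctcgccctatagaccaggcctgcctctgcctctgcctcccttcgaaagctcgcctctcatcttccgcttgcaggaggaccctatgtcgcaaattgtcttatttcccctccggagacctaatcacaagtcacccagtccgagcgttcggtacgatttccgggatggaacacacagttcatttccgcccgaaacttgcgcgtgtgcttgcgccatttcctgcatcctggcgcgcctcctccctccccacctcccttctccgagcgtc
Dcaf8: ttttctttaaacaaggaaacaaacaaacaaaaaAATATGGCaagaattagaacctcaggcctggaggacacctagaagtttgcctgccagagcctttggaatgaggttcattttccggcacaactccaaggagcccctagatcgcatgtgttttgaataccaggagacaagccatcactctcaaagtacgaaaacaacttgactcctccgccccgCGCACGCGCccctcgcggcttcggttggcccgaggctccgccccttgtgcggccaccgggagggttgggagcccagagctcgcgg
Igsf8: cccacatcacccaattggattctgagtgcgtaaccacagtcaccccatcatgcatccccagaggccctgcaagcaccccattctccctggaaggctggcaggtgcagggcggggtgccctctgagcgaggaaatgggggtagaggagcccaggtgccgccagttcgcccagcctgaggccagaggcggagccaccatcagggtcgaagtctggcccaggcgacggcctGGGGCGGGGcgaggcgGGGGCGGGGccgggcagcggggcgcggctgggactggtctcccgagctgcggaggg
Babam2: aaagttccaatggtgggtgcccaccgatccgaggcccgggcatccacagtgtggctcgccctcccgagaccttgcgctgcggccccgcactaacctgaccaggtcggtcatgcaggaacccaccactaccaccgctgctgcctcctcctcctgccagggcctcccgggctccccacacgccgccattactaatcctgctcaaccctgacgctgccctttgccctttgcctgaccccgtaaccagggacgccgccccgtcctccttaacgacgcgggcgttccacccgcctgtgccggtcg
Fosl2: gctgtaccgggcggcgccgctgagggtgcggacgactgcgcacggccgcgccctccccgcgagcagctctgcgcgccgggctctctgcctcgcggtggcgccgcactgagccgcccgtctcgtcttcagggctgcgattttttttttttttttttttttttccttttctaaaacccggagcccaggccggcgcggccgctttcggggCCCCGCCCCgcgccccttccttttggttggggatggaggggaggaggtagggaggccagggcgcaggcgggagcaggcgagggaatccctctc
The Dcaf8 window held a YY1 and an NRF1 match, the Igsf8 window 2 SP/KLF matches and the Fosl2 window 1 SP/KLF match, and the letters of the 9 motifs were not found in the other windows. Over all 21757 protein-coding promoters of the same length, 4.35% held the ETS letters, 8.20% NRF1, 5.51% YY1, 14.1% SP/KLF, 3.16% the CTCF core, 10.7% C/EBP, 7.15% AP-1, 2.45% CRE and 13.2% the TATA box. Among the 2861 genes with a promoter loop in all 4 lists these shares were 7.72%, 13.6%, 7.83%, 19.5%, 4.19%, 8.70%, 5.28%, 3.25% and 8.14%. Among the 2845 genes whose start site took part in loops but never to another promoter they were 5.34%, 10.7%, 6.19%, 19.1%, 4.46%, 9.0%, 4.57%, 3.16% and 9.53%. The ETS, NRF1 and YY1 letters were thus more frequent in the first set than in the second, while SP/KLF and CTCF shares were close. Median GC content was 58.3% in both sets and 50.0% in the 11248 genes without a loop at the start site, and the median ratio of observed to expected CpG was 0.733, 0.684 and 0.308. These shares are descriptions of overlapping windows of related genes and carry no test.

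The significance model of each list rested on 17976716, 14503330, 18999991 and 15831583 contacts. These were derived as the median of expected count over contact probability among its loops, and are not sequencing depth. By this measure p42 UT had the most modelled contacts, and it was also the longest list. Promoter loops held 0.647%, 0.926%, 1.13% and 0.604% of these contacts. All 9 haematopoietic progenitor markers (Kit, Cd34, Gata2, Tal1, Lmo2, Runx1, Meis1, Myb and Spi1) had a loop of some kind at their start site in every list, against 0 of 3 T cell and 0 of 3 neuron markers in any list. Of the other marker lists, 2 to 4 of 6 granulocyte, 1 or 2 of 4 erythroid and 1 or 2 of 3 B cell markers had one, and of 3 hepatocyte markers Apoa1 had one in p42 UT.

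Promoter pairs were a small part of the loops, and more of them were listed in p42 UT than in any other group. Their share of loops under 500 kb was 5.14% (95% Wilson interval 4.99 to 5.29), 5.23% (5.09 to 5.37), 4.59% (4.49 to 4.70) and 4.69% (4.55 to 4.84), and these intervals cover counting error alone. The share was lower in both p42 lists than in both p30 lists as deposited, but in lists cut to the same length it was 5.17%, 5.47%, 5.35% and 4.69%, so that p42 UT stood above p30 UT. Without treatment the p42 list held 1.76 times as many promoter loops as the p30 list, while after LPS it held 0.746 times as many. With LPS the number was 1.20 times that of untreated cells in p30 and 0.508 times in p42. Promoter to distal loops, in which a single bin held a start site, moved in parallel, with ratios of 1.95, 0.787, 1.21 and 0.490. In lists cut to the same 78591 loops of smallest q-value, the 4 ratios of promoter loops were 1.04, 0.859, 1.06 and 0.877, all nearer to 1. With the totals made equal, these ratios compare only promoter loops as a share of list length. The lists other than p30 LPS had the same order by modelled contacts as by promoter loops. The p30 LPS list had the fewest modelled contacts but more promoter loops than p30 UT and p42 LPS. The part of modelled contacts or sequencing depth in these numbers was not tested.

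**Figure D1:**
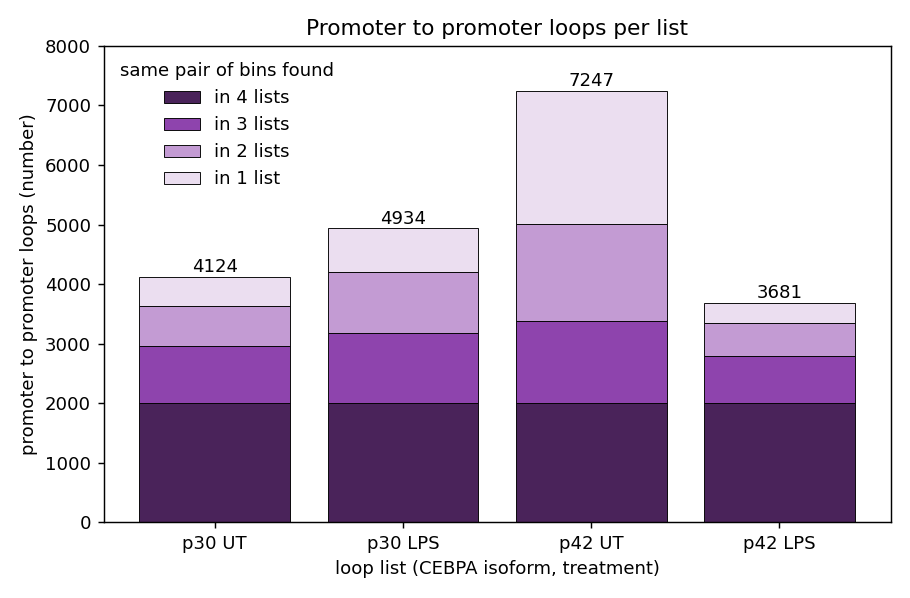
Number of promoter to promoter loops (y axis) in each of the 4 lists (x axis), with bars stacked by the number of lists that held the same pair of bins. The 2009 loops in all 4 lists form the base of every bar, and p42 UT carries the tallest top segment, 2243 loops in no other list.

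The loops were short in all lists, and contacts over expected, the contact count divided by the model's expected count for bins at that distance and coverage, had nearly the same centre in all 4. The median distance was 50 kb in p30 UT, p30 LPS and p42 LPS and 55 kb in p42 UT, and 21.5% to 27.4% of the loops spanned 100 kb or more. Median contacts per loop were 19, 18, 20 and 18, and median contacts over expected were 4.76, 5.04, 4.92 and 4.90. In 96.0% to 97.3% of the loops both bins overlapped an H3K27ac peak, against 90.0% to 92.3% of promoter to distal loops. The median over all promoter loops exceeded that of promoter to distal loops in contacts over expected by 0.158, 0.458, 0.444 and 0.306, that is in 4 of 4 lists (exact two-sided sign-flip permutation p = 0.13 over 4 lists, the smallest this design allows, so it cannot reach 0.05). This order depended on distance. Promoter loops were higher by 0.154 on average at 10 to 20 kb, in 4 of 4 lists, and lower by 0.184 at 100 to 195 kb, also in 4 of 4 lists (exact sign-flip p = 0.13 for each). It also depended on the definition of a promoter: with the start of any transcript of a protein-coding gene in place of the canonical start, the mean difference was -0.0644.

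Promoter pairs also differed from the other classes in how often a possible pair was a loop. Peak bins without a loop in the list could not be counted, so these shares are conditional on the outcome they measure. Among pairs of peak-bearing bins that took part in at least 1 loop of the list, 44.8%, 52.4%, 59.0% and 44.0% of promoter pairs at 10 to 20 kb were loops. Pairs of a promoter and a distal peak bin were loops in 33.0%, 41.2%, 46.5% and 34.5% at the same distance, and pairs of distal peak bins in 31.9%, 38.2%, 41.5% and 32.8%. At 50 to 95 kb the promoter pairs stood at 22.2%, 24.7%, 31.6% and 21.8% and the promoter to distal pairs at 13.1%, 13.4%, 18.6% and 13.2%. At 200 to 495 kb they stood at 0.905%, 1.08%, 1.73% and 0.890%, against 0.520%, 0.546%, 0.795% and 0.520%. Promoter pairs were higher than both other classes in 4 of 4 lists at each of the 5 distance ranges (exact two-sided sign-flip permutation p = 0.13 each, the smallest possible). With the start of any transcript the mean excess over promoter to distal pairs at 50 to 95 kb shrank from 10.5 to 3.73 percentage points. Bins of promoter loops also carried more coverage, with a median coverage of 1.88 to 2.09 times the mean of bins of their kind (with or without a peak), against 1.68 to 1.80 for promoter to distal loops. Within 4 bands of coverage (the geometric mean over both bins) and 5 of distance in the 4 lists, promoter pairs were loops more often than promoter to distal pairs in 78 of 80 comparisons. In the band of 1.25 to 1.75 at 50 to 95 kb, the shares of promoter pairs were 16.8%, 17.2%, 26% and 17.5%, and those of promoter to distal pairs 11.7%, 11.4%, 18.7% and 11.8%.

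**Figure D2:**
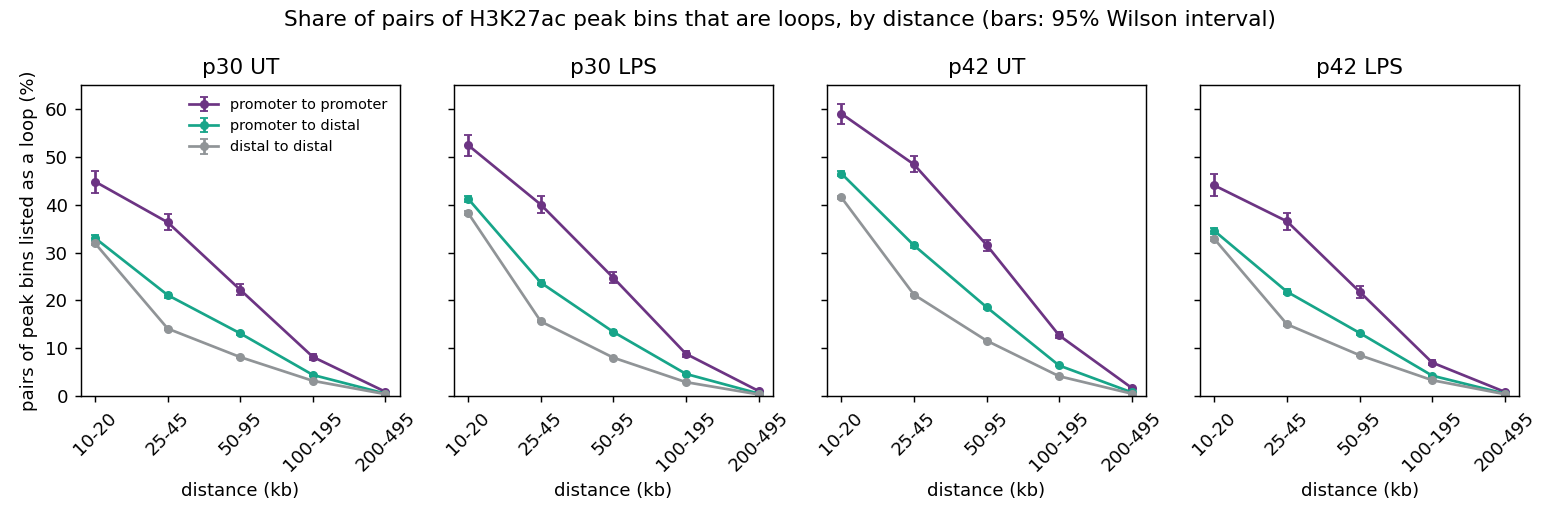
Percent of pairs of peak-bearing bins listed as a loop (y axis) against their distance in kb (x axis), in 4 panels, 1 per list. Each bin had at least 1 loop in the list. Points are the 3 classes of pair and bars their 95% Wilson intervals. Promoter pairs lie above both other classes at every distance in every panel, from 44.0% to 59.0% at 10 to 20 kb down to 0.890% to 1.73% at 200 to 495 kb.

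Most of these loops passed over other genes. In 71.0% to 72.0% of the loops there was a single gene in each bin, and the 4 lists gave 5676, 6758, 9890 and 5051 gene pairs from 4875, 5323, 6828 and 4534 genes, or 20.8% to 31.4% of all protein-coding genes. No further promoter bin lay between the partners in 37.9%, 38.0%, 35.0% and 40.2% of the loops, the median was 1 bin in between, and up to 27 were passed. Within the same distance range, and among the same kind of peak-bearing bins as above, adjacent promoters were joined more often. At 50 to 95 kb a pair with no promoter bin in between was a loop in 35.4%, 37.6%, 45.8% and 36.5% of cases. For a pair with 4 or more in between these were 14%, 18.1%, 24.4% and 14.2%. Distances inside the range were not matched between these pairs. The relative direction of the genes showed little difference. At 50 to 95 kb tandem pairs were loops in 21.2%, 23%, 30.5% and 21.1%, convergent pairs in 22.8%, 23.1%, 30.3% and 20.8%, and divergent pairs in 20.2%, 24.8%, 30.5% and 22.3%. At 10 to 20 kb divergent pairs were lowest in each list, at 35.9%, 47.3%, 52.6% and 39%, against 46.1%, 52.2%, 60.4% and 46.2% for tandem pairs.

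Promoter loops recurred across the lists more than other loops, and the shared core was the part with the most contacts. Of the 9172 loops in the union, 2009 (21.9%) were in all 4 lists, and they joined 2800 gene pairs of 2861 genes. At 10 to 20 kb 35.4% of promoter loops in the union were in all 4 lists, against 23.8% of promoter to distal and 16.7% of distal to distal loops. At 25 to 45 kb these were 26.7%, 17.8% and 12%, at 100 to 195 kb 11.9%, 11.6% and 11.0%, and at 200 to 495 kb 7.35%, 7.88% and 7.89%, so the excess was seen below 100 kb. Loops in all 4 lists had a median of 28, 27, 37 and 24 contacts and spanned 40 kb, while loops of a single list had 12, 12, 13 and 11 contacts and spanned 75 to 90 kb. The p42 UT list alone held 2243 loops, p30 LPS alone 735, p30 UT alone 488 and p42 LPS alone 329, which was 24.5%, 8.01%, 5.32% and 3.59% of the union, against 28.0%, 8.69%, 5.84% and 4.71% of promoter to distal loops. In lists of equal size the loops in a single list numbered 751 (UT) and 803 (LPS) for p30, and 627 (UT) and 577 (LPS) for p42. The loops in all 4 lists were then 1796 of 7135 (25.2%). Between isoforms, 3372 loops were shared without treatment, which was 46.5% of the p42 list and 81.8% of the p30 list, and 2645 after LPS, which was 71.9% and 53.6%. Between treatments, 2865 were shared in p30, which was 58.1% of the LPS and 69.5% of the UT list, and 3136 in p42, which was 85.2% and 43.3%.

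**Figure D3:**
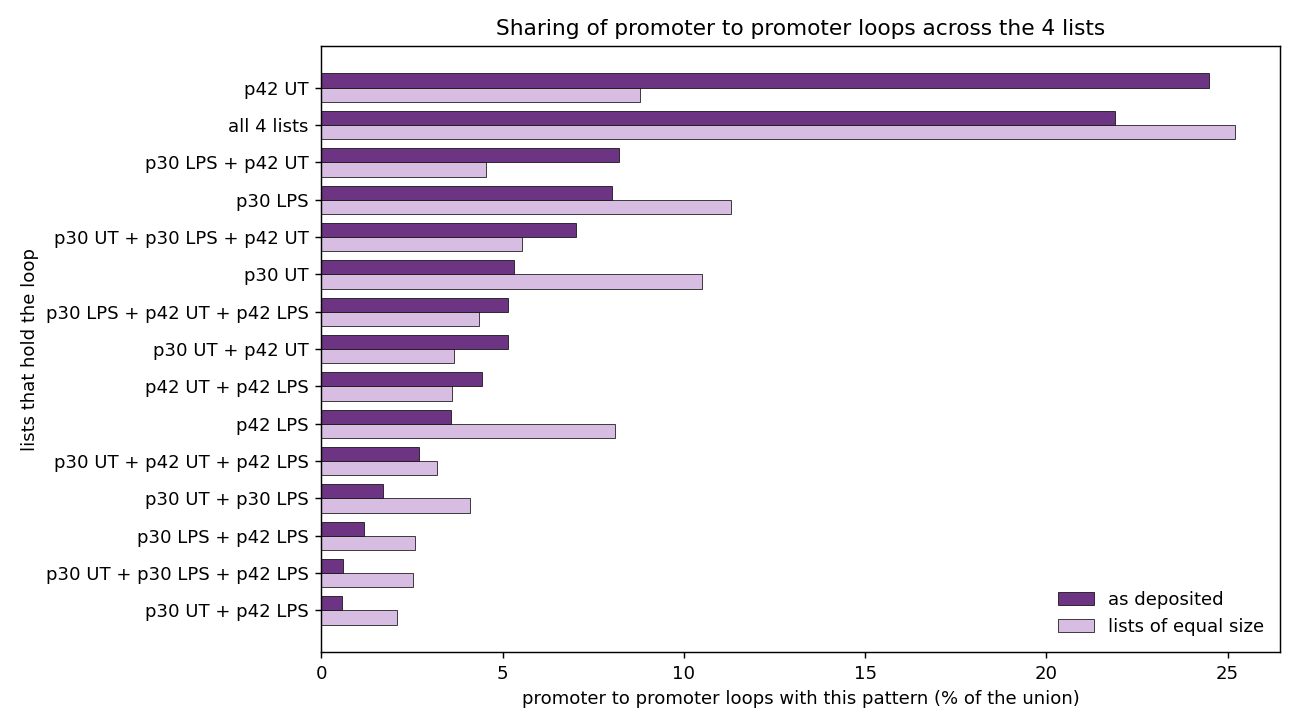
Percent of the union of promoter to promoter loops (x axis) that had each of the 15 patterns of presence in the 4 lists (y axis), in the lists as deposited and in lists of equal size. Loops in p42 UT alone fall from 24.5% to 8.79% when the lists have equal size, and loops in all 4 lists go from 21.9% to 25.2%.

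The patterns that would follow isoform or treatment were small. Loops in both p42 lists and in no p30 list numbered 407, those in both p30 lists alone 157, those in both LPS lists alone 109 and those in both UT lists alone 471. These were 4.44%, 1.71%, 1.19% and 5.14% of the union, against 5.25%, 1.5%, 1.18% and 4.88% of promoter to distal loops. Other pairs of lists share neither isoform nor treatment. Of these, p30 LPS with p42 UT had 753 (8.21%, against 7.55%) and p30 UT with p42 LPS 52 (0.567%, against 0.650%). At equal list size these mixed patterns had 324 and 149. The patterns that follow isoform or treatment had 257, 293, 185 and 261 there. The order of the p42 and p30 patterns thus turned with list length. Many loops of the patterns that follow isoform or treatment had a neighbour within 1 bin in the other lists. Without such a neighbour 135, 43, 30 and 159 were left. The loops named for each pattern were those with the highest smaller contact count, a rule that favours short loops. They were short, with contacts over expected under those of most promoter loops. Over all loops of the p42, p30, LPS and UT patterns, median contacts over expected were 4.73, 4.95, 4.87 and 4.87. Median distances were 60, 75, 60 and 70 kb. H2bc3 with H4c2, which encode core histones of the chromosome 13 cluster, had 114 (UT) and 78 (LPS) contacts in p42 at 10 kb, with contacts over expected of 1.77 and 1.69. The next of the p42 pattern were Hars2/Hars1 with Zmat2, Supt5 with Rps16 and Nedd8/Gmpr2 with Tinf2, all at 10 kb with contacts over expected of 1.67 to 2.31. Cnih2 with Rab1b led the p30 pattern with 84 and 68 contacts and Glyctk with Wdr82 the LPS pattern with 62 and 52, both at 10 kb with contacts over expected of 1.64 to 1.92. The rest of the named loops (Cks1b/Shc1 with Pygo2, Tmem241 with Riok3 and Diras1 with Slc39a3 in p30; Slc49a3 with Pcgf3, Aldh3b1 with Unc93b1 and Gm50139 with Bscl2/Gng3 in LPS; Stoml2 with Atosb, Selenok with Actr8 and Echs1 with Paox in UT) were also at 10 kb. Chosen after their values were seen, loops of 50 kb or more without such a neighbour included S1pr1, a sphingosine 1-phosphate receptor, with Dph5 (175 kb, 14 and 17 contacts in the p42 lists), Psmg1 with Get1 (155 kb, 10 and 12 in the p30 lists) and Trip10 with Adgre1, which encodes the macrophage marker F4/80 (110 kb, 17 and 19 in the UT lists). A loop that is not listed may have had contacts below the threshold, so these patterns are not absences.

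Among loops of at least 50 kb in all 4 lists, the strongest promoter pair lay in the major histocompatibility complex. Aif1, which encodes a calcium-binding protein of macrophages, and Nfkbil1, a gene related to the inhibitors of NF-kB, were joined over 60 kb from chr17:35390001-35395000 to chr17:35450001-35455000. Their contacts were 162, 146, 219 and 129, and contacts over expected were 35.8, 39.1, 44.8 and 31.4. Dcaf8, a substrate receptor of a CUL4 ubiquitin ligase, reached Igsf8, an immunoglobulin superfamily membrane protein, over 160 kb on chromosome 1 with 80, 54, 90 and 42 contacts, or 37.8, 29.4, 41.6 and 22.1 times the expected. In both pairs p42 UT was highest and p42 LPS lowest. The bin of Tmem259, a membrane protein of the endoplasmic reticulum, and Cnn2, calponin 2, on chromosome 10 gave 2 of the 6 strongest pairs. It joined the bin of Cbarp and Atp5f1d, a subunit of ATP synthase, over 155 kb with 60, 84, 59 and 45 contacts (28.2, 42.1, 26.5 and 22.6 times the expected), and Stk11, which encodes the kinase LKB1, over 130 kb with 55, 68, 73 and 40 (22.8, 30.1, 28.2 and 17.6 times the expected). In contacts over expected p30 LPS was highest in both, and p42 LPS was again lowest. Dtl, a factor that directs degradation of Cdt1, with Ints7 met the mitotic kinase gene Nek2 over 245 kb on chromosome 1 with 37, 45, 42 and 38 contacts (25 to 31.8 times the expected). Atxn7l3, a SAGA subunit, met Grn, which encodes progranulin, over 135 kb on chromosome 11 with 56, 57, 58 and 39 contacts.

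The pairs at the greatest distance found in all 4 lists had 8 to 21 contacts each, so counting error was large beside any difference between the lists. Babam2, a member of a BRCA1-associated complex, and Fosl2, an AP-1 gene of the Fos family, were joined over 435 kb from chr5:31855001-31860000 to chr5:32290001-32295000 with 13, 10, 15 and 8 contacts, or 11.0, 8.48, 12.2 and 6.66 times the expected. No other promoter bin lay between them. Cwc22rt6 with Calcrl, a receptor for calcitonin-family peptides, spanned 435 kb on chromosome 2 with 10, 9, 15 and 8 contacts. 1600014C23Rik with Gtpbp2 spanned 430 kb on chromosome 17 with 14, 17, 10 and 10. Xrcc5, which encodes the Ku80 repair protein, and Rpl37a, a ribosomal protein gene, spanned 405 kb on chromosome 1 with 10, 10, 12 and 13. Manf, a factor of the endoplasmic reticulum stress response, and the kinase gene Mapkapk3 spanned 400 kb on chromosome 9 with 10, 12, 21 and 14.

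**Figure D4:**
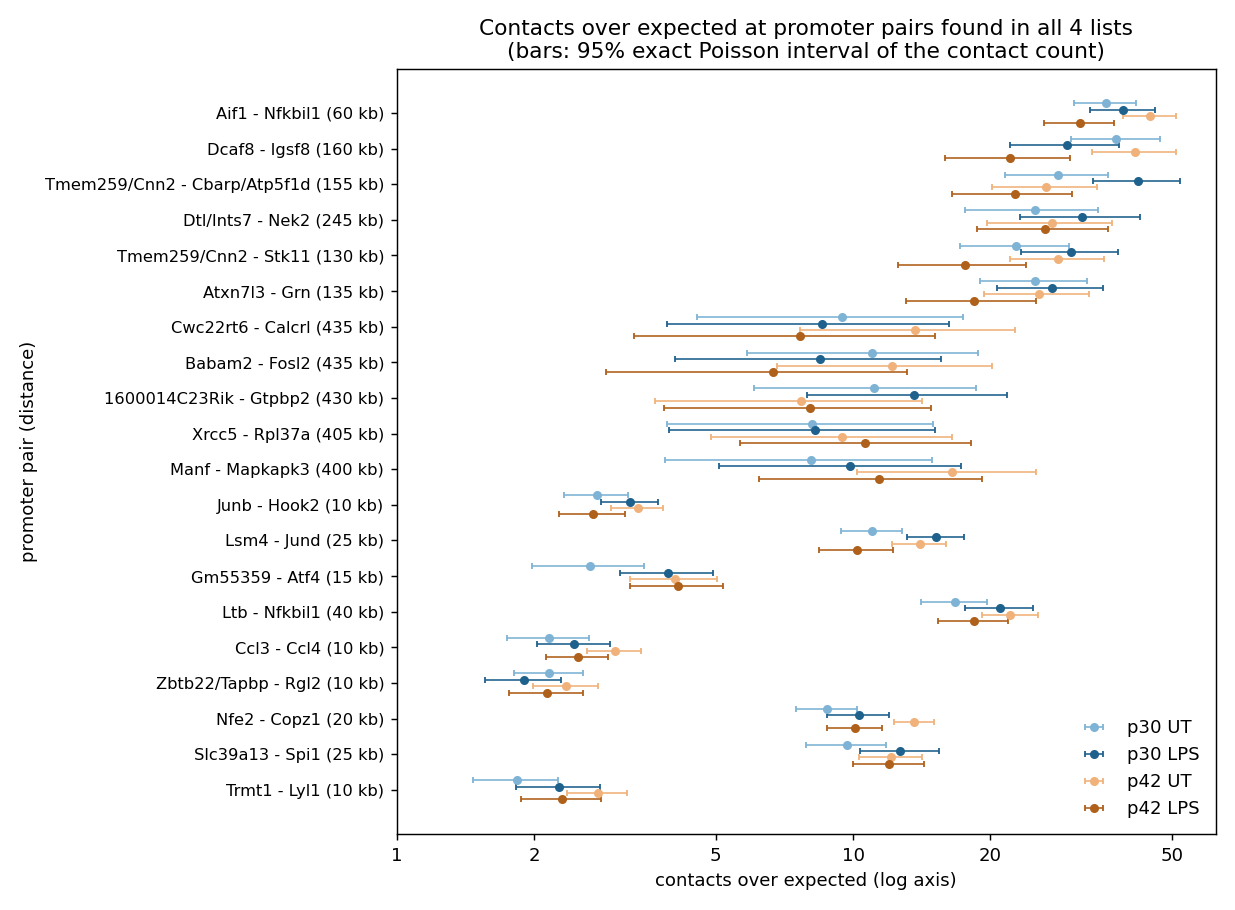
Contacts over expected (x axis, log scale) in each of the 4 lists (coloured points) for promoter pairs found in all of them (y axis, with the distance); bars are 95% exact Poisson intervals of the contact count. Aif1 with Nfkbil1 stands at 31.4 to 44.8, and the intervals of the pairs at 400 to 435 kb overlap across all 4 lists.

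The 6 promoter bins with the most partners lay on chromosomes 17 and 10. Among loops in all 4 lists, 64.9% of 2477 promoter bins had a single partner and 2.62% had 5 or more. The bin of Msh5, a meiotic mismatch repair homologue, and Clic1, an intracellular chloride channel protein, at chr17:35265001-35270000 had 13 partners, 10 to 195 kb away, with 664, 631, 858 and 532 contacts summed over them. Its partners included Lsm2, Vars1, Ddah2, Csnk2b/Gpank1, Apom/Bag6, Prrc2a, Atp6v1g2 and Ddx39b. Atp6v1g2, a subunit of the vacuolar proton pump, had 12 partners, among them Aif1, Lst1, Ltb and the bin of Tnf and Lta, and D17H6S56E-5 had 11. Vwa7, in the same region, had 9, and Traf7, also on chromosome 17, had 9. Tmem259/Cnn2 on chromosome 10 had 11. Promoters linked by these loops formed 808 separate networks, of which 485 were a single pair and 14 had 10 or more bins. The network with the most bins ran along the class III region of the complex from chr17:35055001 to chr17:35465000, with 31 promoter bins, 39 genes and 84 loops. The next, on chromosome 10, held 24 bins from Ptbp1 to Gamt and included Prtn3, Elane and Cfd, which encode proteases made by granulocyte precursors. Chromosome 17 held 4.77% of promoter bins, 16.2% of the loops in all 4 lists and 12.3% to 13.6% of those of each list. Its share of all loops and of possible promoter pairs, which rises where genes are dense, is not given here. Without chromosome 17, promoter loops were 4.97%, 5.08%, 4.46% and 4.53% of loops under 500 kb, against 5.14%, 5.23%, 4.59% and 4.69% with it.

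Loops between promoters of genes with the same symbol stem were few: 159, 184, 366 and 198 gene pairs in the 4 lists, or 2.72% to 3.92%, and 52 loops in all 4 lists. Hexim1 and Hexim2, which encode inhibitors of the elongation factor P-TEFb, were joined over 15 kb with 223, 273, 275 and 179 contacts, or 6.24, 8.31, 6.42 and 5.37 times the expected. The other 5 with the most contacts were at 10 kb: Zbtb6 with Zbtb26, Hyal2 with Hyal3, Myl12b with Myl12a, Ccl3 with Ccl4 and Evi2b with Evi2a. Their contacts over expected were 1.66 to 3.40, far below that of the Hexim pair. Ccl3 and Ccl4, chemokines made by activated myeloid cells, had 94, 117, 219 and 165 contacts, with 2.16, 2.45, 3.0 and 2.49 times the expected.

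Gene groups differed in how many of their members took part in promoter loops, from 4 of 1188 olfactory receptors to 59 of 68 histone genes. Among all protein-coding genes, 35.2% took part in a promoter loop in some list and 13.1% in the same loop in all 4, and of those with any loop at the start site 72.9% had a promoter loop. Of 84 cytosolic ribosomal protein genes 65 took part in some list and 31 in all 4. For 78 mitochondrial ribosomal protein genes these were 59 and 26, for 43 proteasome genes 29 and 10, for 37 genes of respiratory complex I 27 and 15, and for 18 cytosolic tRNA synthetases 13 and 4. As a share of the members with any loop at the start site, 89.0%, 88.1%, 85.3%, 90.0% and 76.5% had a promoter loop. The C2H2 zinc finger (Zfp) genes stood at 167 of 412 with 48 in all 4 lists, the Hox genes at 3 of 39 with 0 and the olfactory receptors at 4 of 1188 with 1. Rpl36 with Lonp1 (10 kb, 186, 205, 247 and 149 contacts) and Rps15a with Arl6ip1 (10 kb, 127, 150, 184 and 125) had the most contacts of the ribosomal group. Psmb9, an immunoproteasome gene that shares its bin with the peptide transporter gene Tap1, met Psmb8 at 10 kb with 82, 105, 95 and 68 contacts.

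Replication-dependent histone genes lie in clusters and encode the core and linker histones made in S phase. Of 68 members 59 took part in a promoter loop in some list, but 15 in the same one in all 4. Of the 61 with any loop at the start site 96.7% had a promoter loop, against 72.9% of all genes. Promoter loops with a histone gene in either bin, each counted once, numbered 23, 41, 83 and 46, and in lists of equal size 23, 29, 51 and 46. Both p42 lists were thus above both p30 lists at equal list length, while all promoter loops numbered 4052, 4286, 4197 and 3681 there. Loops with a chemokine gene had the same order of isoforms at equal list length, with 7, 8, 11 and 15. H4c3 with H1f2 (40 kb) had 35, 50, 108 and 47 contacts, or 8.30, 12.2, 18.7 and 11.0 times the expected. Histone genes have near-identical copies, so reads that map to several of them could be split or lost before the lists were made.

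AP-1 genes, the Fos, Jun, Atf and Maf members that bind as dimers, included several with strong promoter contacts. Of 18 members 11 took part in a promoter loop in some list and 8 in the same one in all 4 (44.4%, against 13.1% of all genes), and of those with any loop at the start site 73.3% had a promoter loop, close to the 72.9% of all genes. Their promoter loops numbered 29, 29, 34 and 20, and 29, 25, 24 and 20 in lists of equal size. Jund had 7, 11, 6 and 5 partners, and its loop to Lsm4, an RNA-binding Sm-like protein, over 25 kb held 166, 197, 213 and 117 contacts, or 11.0, 15.2, 14 and 10.2 times the expected. Junb met Hook2 at 10 kb with 150, 191, 229 and 143 contacts and Get3/Trir at 45 kb with 28, 45, 34 and 31. Mafg, a small Maf protein gene, met Aspscr1 over 40 kb with 50, 45, 78 and 50 contacts. Atf4, the effector of the integrated stress response, met Gm55359 over 15 kb with 51, 74, 85 and 74. At Fos, the promoter of Tmed10, a cargo receptor of the early secretory pathway, was joined over 100 kb with 15, 22, 39 and 21 contacts, or 7.03, 10.8, 15 and 9.37 times the expected. Fosb met the repair gene Ercc1 over 35 kb with 18, 34, 39 and 27 contacts, or 4.96, 9.94, 9.30 and 8.02 times the expected. In these loops to Tmed10 and Ercc1 p30 UT was lowest. Other loops of these genes had another order: Fos with Nek9 (135 kb) was not listed in p30 LPS and had 9, 16 and 10 contacts in the other lists, and Fosb with Opa3 (80 kb) had 13, 17 and 11 in p30 UT, p30 LPS and p42 LPS and was not listed in p42 UT.

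Of 70 inflammatory response genes, 39 took part in a promoter loop in some list and 22 in the same one in all 4 (31.4%), and of those with any loop at the start site 67.2% had a promoter loop, against 72.9% of all genes. Promoter loops with a member in either bin, each counted once, numbered 62, 76, 105 and 66, and 61, 69, 66 and 66 in lists of equal size. Ltb, which encodes lymphotoxin beta, met Nfkbil1 over 40 kb with 141, 136, 201 and 130 contacts, or 16.7, 21.0, 22.1 and 18.4 times the expected. The bin of Tnf and Lta, which encode tumour necrosis factor and lymphotoxin alpha, met Nfkbil1 over 30 kb with 80, 111, 119 and 104, or 7.77, 13.0, 10.1 and 11.0 times the expected. Tnf and Ltb themselves, at 10 kb, had 113, 110 and 119 contacts in the first 3 lists and were not listed in p42 LPS. Nfkb2, an NF-kB subunit gene, met Cuedc2 over 35 kb with 38, 71, 43 and 36 contacts (5.22, 9.74, 5.88 and 5.76 times the expected) and the bin of Psd and Fbxl15 over 25 kb with 25, 59, 37 and 31. At Nfkb2 p30 LPS was highest for these loops. Nfkbia, the gene of the NF-kB inhibitor, met Psma6 over 90 kb with 21, 29, 41 and 22 contacts, and Rela, another subunit gene, met the acetyltransferase gene Kat5 over 25 kb with 52, 64, 75 and 45. Ccl3 had 4, 5, 6 and 6 partners and Ccl4 had 1, 2, 5 and 6, with Wfdc17 and Ccl9 among them. Il6 had a promoter loop in p42 LPS alone, to Dnajb6 over 275 kb with 10 contacts.

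Of 45 haematopoietic regulators, 23 took part in a promoter loop in some list and 7 in the same one in all 4 (15.6%, against 13.1% of all genes), and of those with any loop at the start site 59.0% had a promoter loop, below the 72.9% of all genes. Nfe2, an erythroid and megakaryocyte factor, met Copz1 over 20 kb with 173, 161, 383 and 200 contacts, or 8.77, 10.3, 13.6 and 10.1 times the expected. It also met Gpr84, a fatty acid receptor of myeloid cells, over 55 kb with 57, 63, 73 and 80, or 14, 16.1, 13.9 and 16.5 times the expected. Spi1, which encodes the myeloid factor PU.1, met the zinc transporter gene Slc39a13 over 25 kb with 98, 100, 158 and 127 contacts, and Lyl1 met Trmt1 at 10 kb with 89, 89, 174 and 98. In the first of these Nfe2 loops p42 UT stood above the others, while for Gpr84 contacts over expected differed little. Cebpa and Cebpg, which lie 60 kb apart on chromosome 7, were joined with 11 contacts in untreated p30 cells and with 23 and 12 in p42 cells without and with LPS, and the pair was not listed after LPS in p30. Whether reads of the CEBPA transgene fell in the Cebpa bin was not tested. Of 28 genes of the ATF4 stress response 16 took part in a promoter loop in some list and 7 in the same one in all 4 (25%, against 13.1% of all genes), and of those with any loop at the start site 69.6% had a promoter loop, against 72.9%. Ddit3, which encodes CHOP, met the tRNA synthetase gene Mars1 over 20 kb with 85, 95, 129 and 96 contacts.

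Contacts over expected were then compared at loops that both lists of a contrast held with at least 20 contacts between them. Without treatment 61 of 3330 promoter loops were at least 2-fold higher in p42 than in p30 and 2 were at least 2-fold lower (1.83% and 0.0601%), against 1.95% and 0.173% of all 57903 loops. After LPS 6 of 2605 were higher in p42 and 52 lower (0.230% and 2.00%), against 0.284% and 0.920% of all loops. In p30, 39 of 2815 were higher with LPS and 6 lower (1.39% and 0.213%), against 0.893% and 0.322%. In p42, 4 of 3104 were higher with LPS and 60 lower (0.129% and 1.93%), against 0.106% and 1.52%. The direction of each contrast was that of all loops, with median log2 folds of 0.19, -0.16, 0.19 and -0.20 at promoter loops and 0.17, -0.092, 0.14 and -0.12 at all loops. Relative to all loops the promoter loops shifted by 0.028, -0.069, 0.049 and -0.079. Centred in this way, the loops past 2-fold were 25 higher and 8 lower for p42 without treatment, 13 and 26 for p42 with LPS, 15 and 13 for LPS in p30 and 12 and 34 for LPS in p42. Taken as contacts per modelled contact, they were 116 and 2, 11 and 102, 91 and 3, and 8 and 90. The SD of the log2 folds was 0.37 to 0.39 at promoter loops, and counting error in the contacts alone would give 0.43 to 0.44. A loop that fell below the list's threshold in either group is not counted here, which narrows the folds.

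**Figure D5:**
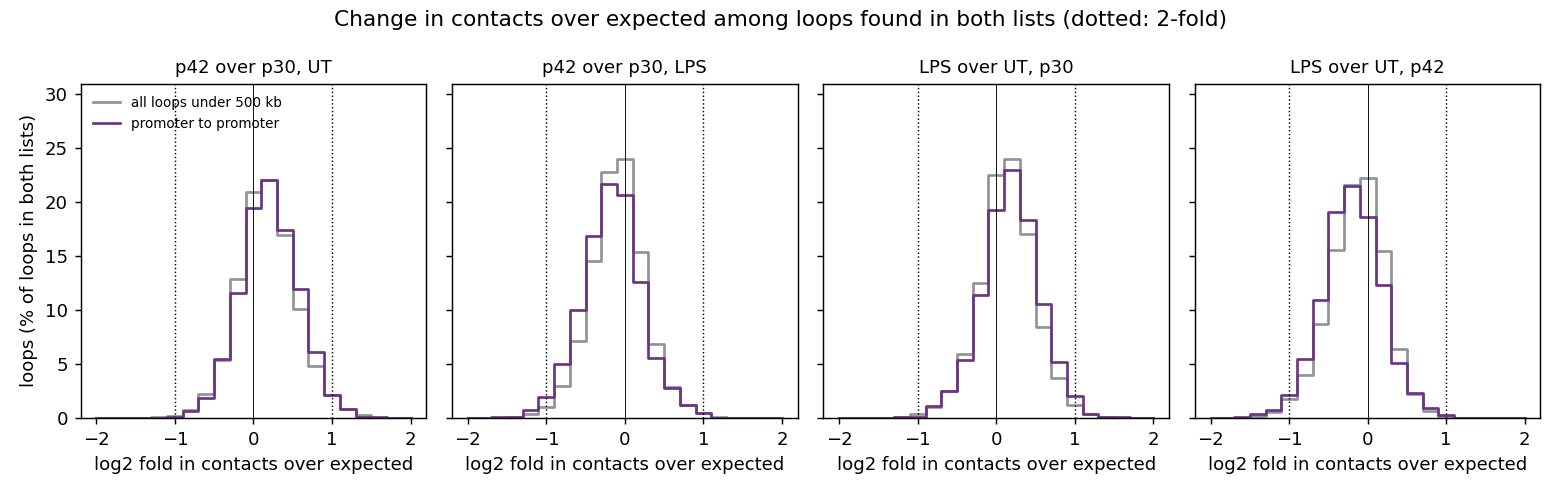
Distribution of the log2 fold in contacts over expected (x axis; values past -2 or 2 are in the end bins) as a percent of the loops found in both lists (y axis), for promoter to promoter loops and for all loops under 500 kb, in 4 contrasts. Both curves shift in the same direction in each contrast, with more promoter loops on the low side for p42 over p30 in LPS, and promoter medians of 0.19, -0.16, 0.19 and -0.20.

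The loops with the greatest folds had 8 to 58 contacts in the lists that held them. Gtf2h2, a TFIIH subunit gene, with Rad17/Ak6/Taf9 (160 kb) had 12, 20, 42 and 21 contacts, a 3.09-fold excess of p42 without treatment (95% exact interval 1.60 to 6.45, counting error alone). Mapk8ip3, a JNK scaffold gene, with Cramp1 (75 kb) had 15, 39, 46 and 29, an excess of 2.98-fold for p42 without treatment (1.64 to 5.75) and of 3.08-fold for LPS in p30 (1.66 to 6.02). These 2 contrasts share the p30 UT list, which was lowest. Pabpn1 with Ngdn (120 kb) was 2.93-fold higher in p42 UT (1.40 to 6.71). In the opposite direction Bola3 with Stambp was 2.35-fold higher in p30 UT and Acd/Pard6a with Pskh1 2.05-fold, both with intervals that reached below 1 (0.982 to 6.20 and 0.954 to 4.69). After LPS, Xiap, an inhibitor of caspases, with the cohesin gene Stag2 (80 kb) had 42 contacts in p30 and 11 in p42, with 23 in p30 UT and 41 in p42 UT. This was a 3.41-fold excess of p30 LPS over p42 LPS (1.73 to 7.35) and a 2.97-fold excess of p42 UT over p42 LPS (1.5 to 6.40). Klf16 with Mknk2 (100 kb) had 50, 47, 55 and 16 contacts, with excesses of 3.07-fold (1.71 to 5.79) and 2.90-fold (1.64 to 5.43) in the same contrasts. In both pairs p42 LPS was the low list, and the contrasts share it.

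Other loops past 2-fold after LPS were Sp2 with Scrn2, 2.86-fold higher in p30 (1.46 to 5.91), and Syvn1 with Snx15, Fcrlb with Fcgr2b and Agtpbp1 with Naa35, which were 2.26-fold (1.08 to 5.06), 2.13-fold (1.12 to 4.32) and 2.06-fold (1.17 to 3.82) higher in p42. Fcgr2b encodes the inhibitory Fc receptor, and its loop to Fcrlb (60 kb) had 20, 13, 41 and 42 contacts, so that both p42 lists lay above both p30 lists. For LPS in p30, Rilpl2 with Tmed2 was 3.66-fold higher (2.03 to 7.01) with 15 contacts in UT and 51 in LPS, and Top2b with Ngly1 2.91-fold higher (1.43 to 6.39). Ptp4a2 with Spocd1, Ndufaf2/Ercc8 with Depdc1b and Tgif1 with Myl12a were 2.44-fold (1.22 to 5.22), 2.44-fold (1.04 to 6.36) and 2.20-fold (1.05 to 4.94) higher in p30 UT. For LPS in p42, Pdxdc1 with Marf1 was 3.16-fold higher in UT (1.46 to 7.57), while Ostf1/Nmrk1 with Carnmt1, Adap2 with Rnf135 and Ugt1a6b with Ugt1a6a were 2.18-fold (1.01 to 4.89), 2.08-fold (1.08 to 4.16) and 2.06-fold (1.05 to 4.22) higher with LPS. Each of these was chosen as an extreme among all loops compared, so its fold is a description.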

How the data were processed

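H3K27ac HiChIP was done in HPC-7 cells with p30 or p42, without treatment or with LPS for 2 hours, with 2 libraries per group and 8 in all. Per the labels and the study's methods, the authors mapped reads to mm39 with BWA-MEM 0.7.17, removed duplicates with pairtools and called loops with FitHiChIP at 5 kb and a q-value under 0.01; how replicates were pooled is not given in the sources used here. Each deposited list holds, per loop, the contact count, the coverage bias of each bin (its coverage over the mean of peak or other bins), the expected count of contacts, the contact probability as a fraction and the p-value and q-value of the authors' model; the p-value that rests on distance alone was not used. Values are 1 per group, so p-values over replicates could not be had.

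Start sites were the Ensembl canonical transcripts of 21757 protein-coding genes in GENCODE M39 (GRCm39; all 411922 listed loops lay inside its chromosomes). Contacts over expected is the contact count divided by the expected count. Loops were matched by identical bins. Medians of the loop classes were compared over the 4 lists by an exact two-sided sign-flip permutation test, differences between groups by a 2-fold rule at loops with at least 20 contacts over both lists. Shares have 95% Wilson intervals and folds exact binomial (Clopper-Pearson) ones; both cover counting error alone. The class and fold steps were tested on simulated data. Python 3.11.15, pandas 2.3.3, numpy 2.4.6, scipy 1.17.1 and networkx 3.6.1 were used.

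Named loops were, by rule: the 6 with the highest geometric mean of contacts over expected at 50 kb or more and the 5 longest in all 4 lists; the 6 promoter bins with most partners; 4 loops per 2-list pattern by the smaller contact count; 3 per direction and contrast by fold; up to 5 per gene list and 6 of one symbol stem by contacts. Not all gene list loops are printed, and a loop printed beyond this rule was chosen after its values were seen. The members and gene lists were chosen with earlier results of these data known. Alternatives were other q-value, contact, distance, promoter and list-size settings. Loops of 500 kb or more were left out. A loop of the UT pattern that the rule names is not reported here.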

Additional observations from a re-analysis of the deposited data

Results flagged for a closer look

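With LPS the number of promoter to promoter loops moved in opposite directions in the 2 isoforms: the log2 ratio of LPS to UT stood at 0.26 for p30 but at -0.98 for p42, which differ by 1.24. Contacts over expected at promoter loops held by both lists did the same, with a median log2 fold of 0.19 for p30 but -0.20 for p42, which differ by 0.390. All loops under 500 kb held by both lists had medians of 0.14 and -0.12 in the same contrasts, which leaves 0.049 and -0.079 for promoter loops relative to them. Each group had a single list, so neither difference was tested. In lists of equal size the ratios of loop numbers were 1.06 and 0.877.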

How the results depend on the processing

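No paired analysis was possible because each deposited list pools both replicates of its group, so neither a fit with the replicate number as a block nor the omission of a replicate could be run. Ratios of loop numbers are given as p42 over p30 in UT, p42 over p30 in LPS, LPS over UT in p30 and LPS over UT in p42, and each kept its side of 1 under every setting run. In lists of equal size they were 1.04, 0.859, 1.06 and 0.877. With a q-value under 0.001 the UT ratio was 1.92 and the ratios of LPS over UT were 1.25 (p30) and 0.469 (p42), and under 1e-05 all 4 were 2.07, 0.665, 1.30 and 0.417. The UT ratio of p42 over p30 was 1.83 with bins within 1 kb of the start site and 1.85 with the start of any transcript. With that last setting the numbers themselves were 11420 (UT) and 13957 (LPS) for p30 and 21130 and 10612 for p42, and the differences of promoter from promoter to distal loops reversed, to -0.0644 in median contacts over expected and -1.25 kb in median distance. The distance difference was also 0 among loops of at least 20 kb.

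The percent of the union in both lists, in the same order, was 68.0, 72.3, 73.0 and 67.7 with 1 bin of slack against loops of any class, and 36.2, 37.7, 40.5 and 33.6 at 50 kb or more, a setting chosen after seeing the data. In lists of equal size it was 48.1 and 49.0 for p42 over p30 in UT and for LPS over UT in p42. With a q-value under 0.001 it was 40.7, 42.7 and 37.9 for p42 over p30 in UT and LPS and for LPS over UT in p42, and under 1e-05 39, 40.6 and 34.8.

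Loops past 2-fold, higher and lower, centred on all loops (also chosen after seeing the data) were 25 and 8 for p42 over p30 in UT, 13 and 26 in LPS, 15 and 13 for LPS over UT in p30, and 12 and 34 in p42. As contacts per modelled contact, 116 were higher in p42 UT than in p30 UT, 11 higher and 102 lower in p42 LPS than in p30 LPS, 91 higher and 3 lower with LPS in p30, and 8 higher with LPS in p42. With at least 40 contacts, 0 were lower in p42 UT than p30 UT, 33 lower in p42 LPS than p30 LPS, 3 lower with LPS in p30 and 2 higher with LPS in p42. Centring, the contact minimum and, for ratios of loop numbers, equal list size act through their own construction. The cause of the other changes was not tested. The excess of promoter pairs over promoter to distal pairs at 50 to 95 kb was 9.42, 6.80, 3.73 and 10.1 percentage points with lists of equal size, a q-value under 1e-05, the start of any transcript and without chromosome 17, all chosen after seeing the data.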
